A study of Homo sapiens with 6 samples.

Results

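The BCL2 family decides at the mitochondrion whether a stressed cell lives or dies, and 10 of its genes were followed in A549 cells that overexpress TIPARP. The genes were BCL2, BCL2L1, BCL2L2, MCL1, BAK1, BID, BAD, BIK, PMAIP1 and BCL2L11, taken by symbol from tables of 53826 gene entries. All 10 were listed in the tables. Of these, 9 passed a filter on low values, more than 2 TPM in 1 or more of the 6 libraries, as did 13181 entries in all, and BCL2 did not. TPM expresses a gene as a length-corrected share of all transcripts of a library, so levels of different genes can be set side by side within a library. Between libraries it depends on the scaling, and the median gene of a library lay between -0.20 and 0.28 in log2 from the mean library. The A549 line derives from an adenocarcinoma of the human lung. In it, A549-TIPARP cells stably overexpress TIPARP and A549-GFP cells stably overexpress GFP, each from a retroviral vector of the pMXs type, with no other treatment. RNA-seq was performed on 3 libraries of each line, numbered as experiments 1 to 3. The labels do not say whether these came from separate transductions, so the spread between libraries may be partly technical. How many clones a line holds is not stated in the sources used here.

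Antiapoptotic members of the family (BCL2, BCL2L1, BCL2L2 and MCL1, which encode BCL-2, BCL-xL, BCL-w and MCL-1) sit on the outer mitochondrial membrane and hold the proapoptotic members in check. BAK1 encodes BAK, which together with BAX forms the pores that release cytochrome c. The BH3-only members BID, BAD, BIK, PMAIP1 (NOXA) and BCL2L11 (BIM) sense stress and either occupy the antiapoptotic proteins or activate BAK and BAX directly. Much of this control acts on the proteins, by cleavage, phosphorylation and turnover, which RNA does not show. In bulk RNA a lower level in every cell and fewer cells with the transcript cannot be told apart.

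TIPARP measured 6.79, 11.4 and 3.68 TPM in A549-GFP replicates 1 to 3, against 131, 90.5 and 123 TPM in the A549-TIPARP libraries. All A549-TIPARP libraries lay above all A549-GFP libraries for this gene, and transgene and endogenous transcripts are not separated. Of the markers of epithelium, EPCAM, KRT8 and KRT18 were at 126 TPM or more in every library and CDH1 was between 61.0 and 142 TPM. KRT19 was lower, between 2.54 and 5.36 TPM in A549-GFP cells and between 10.9 and 19.2 TPM in A549-TIPARP cells, without overlap (limma adjusted p = 0.283). Of the fibroblast markers COL3A1 and PDGFRB were at the floor in all libraries, and COL1A1 was at most 1.44 TPM in A549-GFP cells and between 1.64 and 2.56 TPM in A549-TIPARP cells. The part of these marker differences in the results was not tested. All markers of leukocytes and endothelium that were looked up (PTPRC, CD3E, CD79A, PECAM1, CDH5 and VWF) were at the floor of the tables. Depth is unknown because the tables hold no counts, and every TPM below 1 is listed as 1. A549-GFP replicate 2 stood apart: it was the highest of the 6 libraries for 52.0% of the 13181 analysed genes. Differences that turned in direction or became much smaller or larger without this library are given with and without it.

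None of the 9 analysed BCL2 family genes was called higher or lower in A549-TIPARP cells than in A549-GFP cells by the test across all genes. The test was limma on log2(TPM + 1), adjusted by the Benjamini-Hochberg method over the 13181 genes, and the adjusted p-values of the members lay between 0.994 and 0.998. It called 2 of the 13181 genes, or 0.0152%, which were TIPARP (higher, 0.00759% of genes) and the read-through entry RBM14-RBM4 (lower, 0.00759%). The call of TIPARP held in 6 of 13 alternative settings, although its difference was 3.54 or more on log2(TPM + 1) in each. A missing call therefore does not show that a member was unchanged. Before adjustment 0 of the 9 members had a p-value under 0.05, against 3.85% of all genes. No member differed by more than 2-fold between the lines, a limit passed by 1.96% of all genes (1.53% higher and 0.432% lower in A549-TIPARP cells). For no member did the libraries of the lines separate without overlap, against 8.91% of all genes. The means of 3 members were higher and those of 6 were lower in A549-TIPARP cells, with a median difference of -0.06 on log2(TPM + 1), where the median of all analysed genes was also -0.06. Without A549-GFP replicate 2, 7 members were higher and 2 lower, with a median of 0.25 against 0.04 over all genes. In that comparison limma called 0 members and 0.0228% of all genes. The libraries of 2 members, BAD and BCL2L1, then separated with A549-TIPARP higher, as did those of 21.2% of all genes, and 0 members separated with it lower, against 6.42%.

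**Figure D1:**
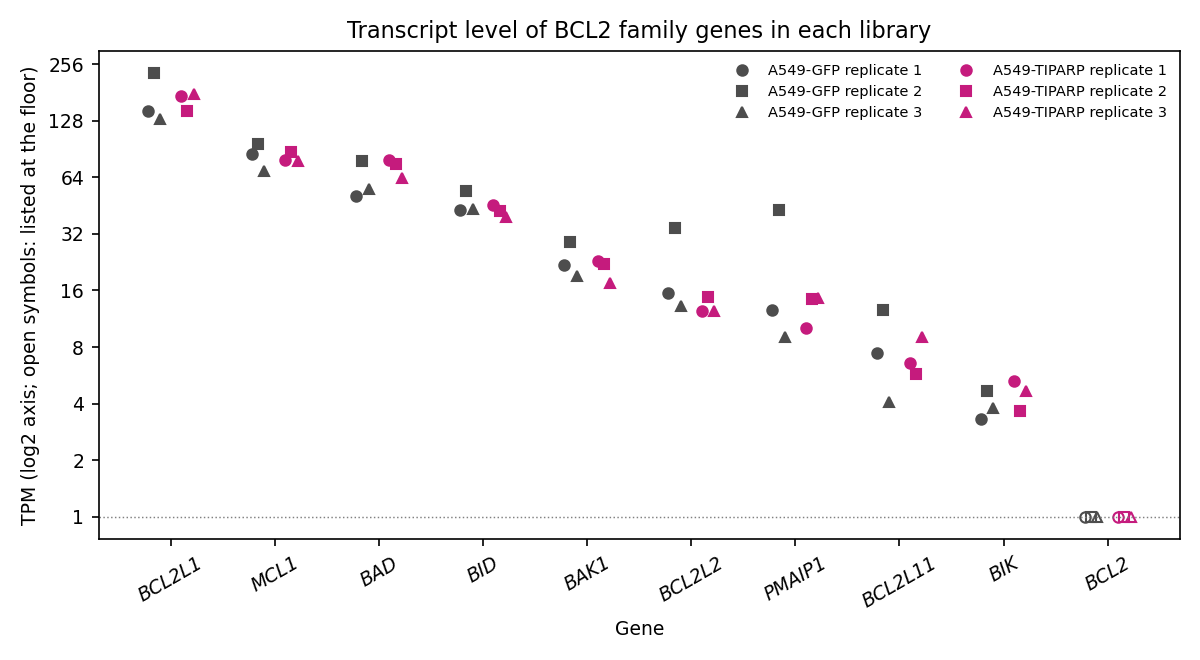
Level in TPM (log2 axis) of the 10 BCL2 family genes in each of the 6 libraries, with A549-GFP in grey, A549-TIPARP in magenta, the symbol shape giving the replicate and open symbols values listed at the floor. The levels run from BCL2L1 above 130 TPM to BCL2 at the floor, the lines overlap for every gene, and the grey square of A549-GFP replicate 2 stands far above the rest for PMAIP1 and BCL2L2.

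The levels of the members spanned more than the differences between the lines did. BCL2L1 was the highest, with a geometric mean of 163 TPM over the 6 libraries, and it lay above the next gene, MCL1 (81.9 TPM), in 6 of 6 libraries. BAD (66.0 TPM), BID (44.4 TPM) and BAK1 (21.8 TPM) followed. MCL1 was above BAD in 5 of 6 libraries, and their ranges overlapped. Below BAK1 came BCL2L2 (15.9 TPM) and PMAIP1 (14.7 TPM), whose order held in 4 of 6 libraries and is not resolved. BAK1 was above BCL2L2 in 5 of 6 libraries, with overlapping ranges. In A549-GFP replicate 2 BCL2L2 and PMAIP1 lay above BAK1 (34.5 and 42.9 against 29.0 TPM). BCL2L11 (7.11 TPM) and BIK (4.17 TPM) were low in every library, and BCL2 was last.

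Among the antiapoptotic genes, BCL2 was listed at the floor in all 6 libraries, so that its level was below 1 TPM in both lines and no fold can be given. Its position in hg38 is chromosome 18, 63123346 to 63320128, minus strand, with 3 exons in the canonical GENCODE 44 transcript. BCL2L1 (chromosome 20, 31664452 to 31723989, minus strand, 3 exons) measured 143, 230 and 130 TPM in A549-GFP replicates 1 to 3, against 174, 143 and 178 TPM in the A549-TIPARP libraries. The highest and the lowest library were both A549-GFP libraries, with the A549-TIPARP libraries between them. The difference of the lines was 0.01 on log2(TPM + 1) (standard error 0.23, 95% interval -0.52 to 0.55, limma adjusted p = 0.998). Once A549-GFP replicate 2 was set aside, all A549-TIPARP libraries lay above the remaining A549-GFP libraries and the difference was 0.26, with an unadjusted limma p-value of 0.108 and an adjusted one of 0.576. The gene-level value does not separate the long antiapoptotic transcript from the short proapoptotic splice form. Exons of BCL2L1 overlap those of the opposite-strand gene ABALON, which was between 16.8 and 34.5 TPM.

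MCL1, which encodes a short-lived protein that holds BAK and the activator BH3-only proteins, lies on chromosome 1 from 150560895 to 150579738 on the minus strand, with 3 exons. It measured 84.8, 96.2 and 68.8 TPM in A549-GFP replicates 1 to 3, against 79.2, 87.0 and 78.1 TPM in the A549-TIPARP libraries. These values overlapped fully and varied least of the antiapoptotic genes, with an SD of 0.24 and 0.09 in log2 TPM (n = 3 each). The difference was -0.02 on log2(TPM + 1) (standard error 0.18, 95% interval -0.43 to 0.39, limma adjusted p = 0.998), and 0.089 without A549-GFP replicate 2.

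BCL2L2 (chromosome 14, 23298790 to 23311751, plus strand, 4 exons) had the largest difference of the 9 members with all 6 libraries, though not with every library left out in turn. It measured 15.6, 34.5 and 13.3 TPM in A549-GFP replicates 1 to 3, against 12.5, 14.8 and 12.5 TPM in the A549-TIPARP libraries. A549-GFP replicate 2 was more than 2 times as high as any A549-TIPARP library, and the other A549-GFP libraries lay close to the A549-TIPARP range. The difference was -0.52 on log2(TPM + 1) (standard error 0.34, 95% interval -1.29 to 0.25, limma adjusted p = 0.994), and it was -0.12 without A549-GFP replicate 2. With the libraries rescaled to a common median ratio, the A549-TIPARP libraries (12.6, 14.7 and 13.1 TPM) lay below the A549-GFP libraries (15.4, 28.5 and 15.3 TPM), with a difference of -0.46 and an adjusted p of 0.937. BCL2L2 shares exons with the read-through entry BCL2L2-PABPN1, which was at the floor in 3 libraries and at 2.46 TPM at most in the others. How the authors assigned reads that fit both entries is not given in the sources used here.

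BAK1, the pore-forming member (chromosome 6, 33572547 to 33580293, minus strand, 6 exons), measured 21.7, 29.0 and 19.1 TPM in A549-GFP replicates 1 to 3, against 22.9, 22.1 and 17.6 TPM in the A549-TIPARP libraries. The lines overlapped, with A549-GFP replicate 2 the highest and A549-TIPARP replicate 3 the lowest. The difference was -0.14 on log2(TPM + 1) (standard error 0.22, 95% interval -0.65 to 0.37, limma adjusted p = 0.994), and 0.026 without A549-GFP replicate 2. The pseudogene entries BAK1P1 and BAK1P2 were at the floor in all 6 libraries.

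**Figure D2:**
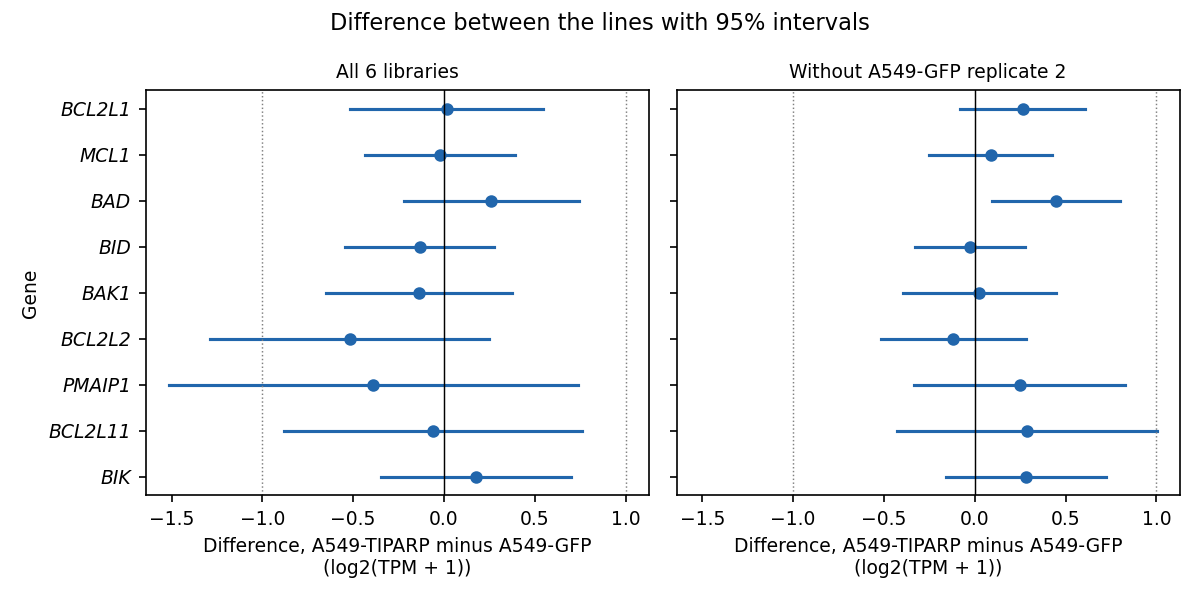
Difference between the lines (A549-TIPARP minus A549-GFP, log2(TPM + 1)) of the 9 analysed members with limma's 95% intervals as lines, for all 6 libraries on the left and without A549-GFP replicate 2 on the right; dotted lines mark 2-fold. With all libraries every interval holds 0, and without that library the interval of BAD alone does not.

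Of the 5 BH3-only genes, the means of 2 were higher and those of 3 were lower in A549-TIPARP cells, with no call. BAD encodes a sensitizer that binds BCL-xL, BCL-2 and BCL-w and is switched off by phosphorylation, and it lies on chromosome 11 from 64269830 to 64284704 on the minus strand, with 4 exons. It measured 50.6, 78.3 and 55.2 TPM in A549-GFP replicates 1 to 3, against 79.5, 75.2 and 63.3 TPM in the A549-TIPARP libraries. Only A549-GFP replicate 2 reached the A549-TIPARP range. The difference was 0.26 on log2(TPM + 1) (standard error 0.21, 95% interval -0.22 to 0.74, limma adjusted p = 0.994). With A549-GFP replicate 1 alone left out it was 0.14. Once A549-GFP replicate 2 was set aside, the lines separated and the difference was 0.45 (95% interval 0.10 to 0.80), with an unadjusted limma p-value of 0.0212 and an adjusted one of 0.385. In that comparison 9.30% of all genes were higher with an unadjusted p-value under 0.05, so that 1 of 9 members is near the share of all genes. After median-ratio rescaling of all 6 libraries the A549-TIPARP libraries of BAD also lay above the A549-GFP libraries, with a difference of 0.32 and an adjusted p of 0.913. Exons of BAD overlap those of GPR137 on the opposite strand, which was between 19.0 and 26.8 TPM. The library kit keeps strand, but the strand setting of the counting is not given in the sources used here.

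BID, which links death receptors to the mitochondrion once caspase-8 has cut its protein (chromosome 22, 17734138 to 17774770, minus strand, 6 exons), measured 42.9, 54.2 and 43.4 TPM in A549-GFP replicates 1 to 3, against 45.8, 42.2 and 39.5 TPM in the A549-TIPARP libraries. The lines overlapped, and the SD in log2 TPM was 0.19 and 0.11 (n = 3 each). The difference was -0.13 on log2(TPM + 1) (standard error 0.18, 95% interval -0.54 to 0.28, limma adjusted p = 0.994), and it was -0.026 without A549-GFP replicate 2.

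BIK, whose product acts from the endoplasmic reticulum (chromosome 22, 43110750 to 43129712, plus strand, 5 exons), measured 3.29, 4.66 and 3.78 TPM in A549-GFP replicates 1 to 3, against 5.31, 3.67 and 4.68 TPM in the A549-TIPARP libraries. The lines overlapped at this low level, and the difference was 0.18 on log2(TPM + 1) (standard error 0.23, 95% interval -0.35 to 0.70, limma adjusted p = 0.994). It was 0.28 without A549-GFP replicate 2 and 0.079 without A549-TIPARP replicate 1.

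PMAIP1 and BCL2L11 varied most among the BH3-only genes. PMAIP1 encodes NOXA, the selective antagonist of MCL-1 and a target of p53 and of the ATF4 stress response (chromosome 18, 59899996 to 59904305, plus strand, 2 exons). It measured 12.6, 42.9 and 8.99 TPM in A549-GFP replicates 1 to 3, against 10.1, 14.4 and 14.5 TPM in the A549-TIPARP libraries. The A549-GFP libraries held both the highest and the lowest value. The difference was -0.39 on log2(TPM + 1) (standard error 0.49, 95% interval -1.52 to 0.74, limma adjusted p = 0.994), and it turned to 0.25 (adjusted p = 0.743) without A549-GFP replicate 2. BCL2L11 encodes BIM, which binds all antiapoptotic members (chromosome 2, 111119378 to 111168444, plus strand, 4 exons). It measured 7.45, 12.5 and 4.07 TPM in A549-GFP replicates 1 to 3, against 6.59, 5.74 and 8.99 TPM in the A549-TIPARP libraries, again with both extremes in A549-GFP. The difference was -0.06 on log2(TPM + 1) (standard error 0.36, 95% interval -0.88 to 0.76, limma adjusted p = 0.998), and without A549-GFP replicate 2 it was 0.29 (adjusted p = 0.753). Without A549-GFP replicate 3 the differences were -0.42 for BCL2L11 and -0.82 for PMAIP1. Exons of BCL2L11 overlap those of MIR4435-2HG on the opposite strand, which was between 4.06 and 7.36 TPM.

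The intervals set what these 6 libraries could show. For 7 of the 9 members the 95% interval lay within 2-fold in both directions on log2(TPM + 1), and for BCL2L2 and PMAIP1 it reached beyond 2-fold lower. The standard errors ran from 0.18 for BID to 0.49 for PMAIP1.

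The promoters of PMAIP1 and BCL2L11 are shown because, with BCL2L2, these genes differed most between A549-GFP libraries. The sequences are those of RefSeq on GRCh38.p14, 5′ to 3′ on the plus strand, from 250 bases before to 50 after the start that RefSeq gives, at chr18:59899746-59900045 and chr2:111120664-111120963. For BCL2L11 this window lies downstream of the start given above from GENCODE, inside the gene's span there. Capitals mark, on either strand, GCGTG, the core bound by the aryl hydrocarbon receptor that induces TIPARP and is repressed by it, and TGACG, the core of the element bound by the CREB and ATF family. Matches of these motifs did not overlap.
PMAIP1: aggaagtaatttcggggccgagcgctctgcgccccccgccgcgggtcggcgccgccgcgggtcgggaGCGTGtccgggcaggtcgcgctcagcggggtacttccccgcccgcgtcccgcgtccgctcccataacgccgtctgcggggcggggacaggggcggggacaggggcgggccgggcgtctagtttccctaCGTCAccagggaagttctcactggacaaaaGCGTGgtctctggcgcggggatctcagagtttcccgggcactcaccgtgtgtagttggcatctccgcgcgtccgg
BCL2L11: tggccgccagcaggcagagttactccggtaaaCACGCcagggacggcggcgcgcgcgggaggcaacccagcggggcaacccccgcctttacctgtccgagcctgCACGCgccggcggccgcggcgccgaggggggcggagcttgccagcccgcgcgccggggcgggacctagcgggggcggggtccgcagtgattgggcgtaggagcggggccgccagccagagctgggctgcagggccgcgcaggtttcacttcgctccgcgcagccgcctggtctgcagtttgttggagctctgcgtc
A promoter was given for 7 of the 10 members. GCGTG was present in 4 of them (BID, BAD, PMAIP1 and BCL2L11), against 36.3% of 27305 promoters of the same length. TGACG was present in 4 (BCL2, BCL2L1, BAD and PMAIP1), against 25.0%, and TGATGNAA, the composite element of ATF4 with C/EBP factors, in 0 of 7, against 3.67%. PMAIP1 and BAD held both of the former motifs, and the promoter of BCL2L11 held GCGTG and no TGACG. A match describes letters in this window and not binding.

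A549-GFP replicate 2 was the highest of the 6 libraries for 7 of the 9 members, where it was so for 52.0% of all analysed genes. It stood above the mean of the other A549-GFP libraries by 2.01 in log2 TPM for PMAIP1, 1.26 for BCL2L2 and 1.18 for BCL2L11. These 3 of 9 members were past 2-fold, against 18.0% of all genes. The gap was 0.33 for MCL1 and 0.33 for BID, below the median of all genes (0.38), and the median of the members was 0.57.

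Some other genes were also far from the rest in A549-GFP replicate 2. ATF4, the central factor of the response to amino acid and endoplasmic reticulum stress, was 1244 TPM in A549-GFP replicate 2 and between 431 and 537 TPM in the other 5 libraries. DDIT3 (CHOP), which ATF4 induces, was 89.9 TPM against 12.9 to 21.6 TPM, and ATF3 was 20.3 TPM against 2.86 to 4.72 TPM. The death receptors TNFRSF10B and FAS were 176 and 21.4 TPM in that library, against at most 82.6 and 9.58 TPM elsewhere. Of the 10 death receptor genes these were the 2 past 2-fold there, and TNFRSF1A was lowest in that library, at 249 TPM against 311 to 372 TPM. BIRC5 (survivin), which is made in dividing cells, was 6.97 TPM there, 38.2 TPM in A549-TIPARP replicate 3 and between 114 and 133 TPM in the other libraries. E2F1, a driver of the entry into S phase, followed the same order, with 7.22 TPM, 19.3 TPM and between 51.3 and 68.8 TPM. BIRC5 was the exception in its list of inhibitors of apoptosis and their antagonists. Of those 8 genes, 7 were highest in A549-GFP replicate 2, where 52.0% of all genes were. There, 4 were past 2-fold above the mean of the other A549-GFP libraries, against 18.0% of all genes. The choice of ATF4 and E2F1 was made with their values known. The part of these differences in the values of the BCL2 family was not tested.

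**Figure D3:**
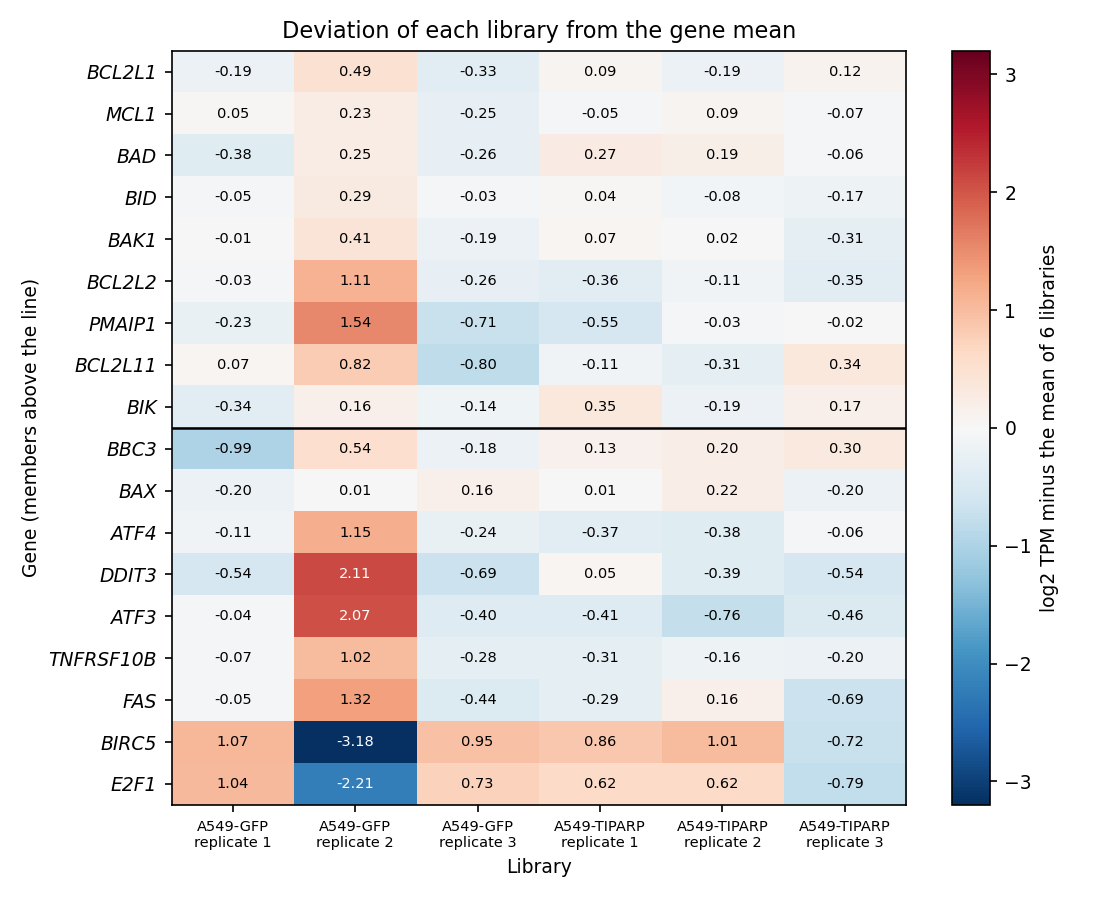
Deviation of each library from the mean of the 6 libraries (log2 TPM) for the 9 analysed members, above the black line, and 9 further apoptosis, stress and cell cycle genes below it; red is higher and blue is lower. The column of A549-GFP replicate 2 is red for all members, most for PMAIP1 (1.54) and BCL2L2 (1.11), and for DDIT3 (2.11) and ATF3 (2.07), and blue for BIRC5 (-3.18) and E2F1 (-2.21).

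Ratios within a library do not depend on how libraries are scaled. The summed TPM of the antiapoptotic members above the floor was 244, 361 and 212 in A549-GFP replicates 1 to 3, against 265, 245 and 268 in the A549-TIPARP libraries. The summed TPM of the BH3-only members was 117, 193 and 115 in A549-GFP cells and 147, 141 and 131 in A549-TIPARP cells. The former was 2.08, 1.87 and 1.84 times the latter in A549-GFP cells and 1.80, 1.74 and 2.05 times in A549-TIPARP cells, so the balance overlapped between the lines. In log2 it was 0.95 ± 0.10 and 0.89 ± 0.13 (SD, n = 3 each). BCL2L1 made up between 58.5% and 66.3% of the antiapoptotic sum. The shares of 2 of the 8 members in these sums did not overlap between the lines, and shares were not tested. Such a share has no counterpart over all genes, and for TPM itself 8.91% of all genes did not overlap. BAD made up 43.3%, 40.6% and 47.8% of the BH3-only sum in A549-GFP replicates 1 to 3, against 54.0%, 53.3% and 48.3% in the A549-TIPARP libraries. BCL2L2 made up 6.39%, 9.57% and 6.26% of the antiapoptotic sum in the former, against 4.70%, 6.02% and 4.65% in the latter. PMAIP1 took 22.3% of the BH3-only sum in A549-GFP replicate 2 and between 6.86% and 11.1% elsewhere. The BH3-only sum leaves out BBC3 (PUMA), a BH3-only gene outside the members, at 8.87 to 25.7 TPM. The separation of the BAD share, 47.8% against 48.3% at its closest, depends on this choice of genes.

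Single pairs of an antiapoptotic and a proapoptotic member were also compared. MCL1 was 6.73, 2.24 and 7.66 times PMAIP1 in A549-GFP cells and 7.84, 6.04 and 5.38 times in A549-TIPARP cells. The low value was A549-GFP replicate 2, and the mean log2 ratio was 0.38 higher in A549-TIPARP cells with that library and 0.18 lower without it (-0.18). MCL1 was between 3.31 and 4.43 times BAK1, and BCL2L1 was between 6.49 and 10.1 times BAK1, with overlap of the lines for both ratios. BCL2L1 was 2.83, 2.94 and 2.36 times BAD in A549-GFP cells and 2.18, 1.91 and 2.81 times in A549-TIPARP cells, which overlapped as well.

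**Figure D4:**
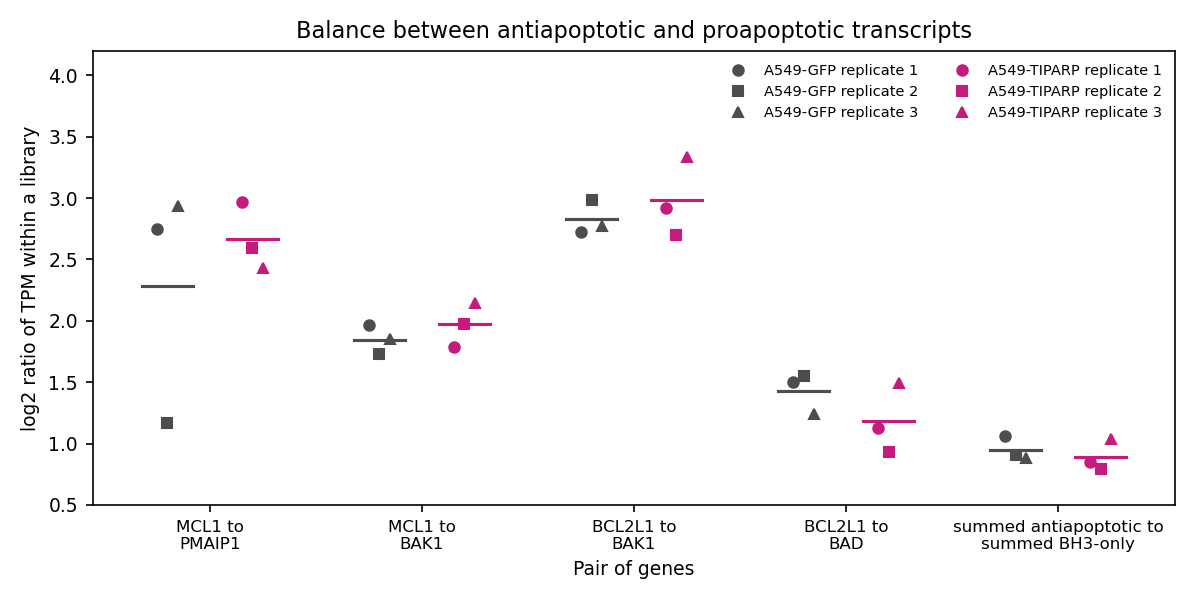
The log2 ratio of TPM within each library for 4 pairs of antiapoptotic and proapoptotic members and for the sums of both classes, with A549-GFP in grey, A549-TIPARP in magenta, symbol shape for the replicate and a bar for the mean of 3 libraries. The lines overlap for every ratio, and the lowest point of MCL1 to PMAIP1, at 1.16, is A549-GFP replicate 2.

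Of 13 further BCL2 family genes, 8 were analysed and none was called by limma or had an unadjusted p-value under 0.05. Without A549-GFP replicate 2, 2 of the 8 (BBC3 and BNIP3L) were under 0.05 before adjustment, against 10.5% of all genes. In that comparison 4 of the 8 separated with A549-TIPARP higher (BOK, BBC3, BNIP3 and BNIP3L), against 21.2% of all genes. BAX, the partner of BAK, lay above BCL2L1 in 6 of 6 libraries, between 209 and 280 TPM, with a difference of 0.02 on log2(TPM + 1). BBC3 (PUMA), a BH3-only target of p53, measured 8.87, 25.7 and 15.6 TPM in A549-GFP replicates 1 to 3, against 19.3, 20.3 and 21.8 TPM in the A549-TIPARP libraries, a difference of 0.39. The lines overlapped through A549-GFP replicate 2 alone, and without it the difference was 0.75 (limma adjusted p = 0.398), while it was 0.027 without A549-GFP replicate 1. BNIP3L, a mitophagy receptor, measured 21.1, 32.4 and 28.5 TPM in A549-GFP replicates 1 to 3, against 34.7, 34.8 and 40.7 TPM in the A549-TIPARP libraries. Its libraries did not overlap, and its difference was 0.43 (standard error 0.21, limma adjusted p = 0.994), or 0.26 without A549-GFP replicate 1. BOK, a pore-forming relative of BAX and BAK, was between 25.8 and 28.5 TPM in A549-GFP cells and between 29.0 and 30.9 TPM in A549-TIPARP cells, a difference of 0.16 without overlap. These 2 of 8 genes stand against 5.36% of all genes that were higher without overlap. After median-ratio rescaling BOK overlapped, with 32.8 TPM in A549-GFP replicate 3 above all A549-TIPARP libraries, while BNIP3L stayed without overlap (at most 32.8 TPM in A549-GFP cells and at least 34.6 TPM in A549-TIPARP cells). BNIP3 (difference 0.14), BCL2L12 (0.18), BCL2L13 (-0.20) and BCL2L15 (-0.04) overlapped between the lines, and without A549-GFP replicate 2 their differences were 0.30, -0.17, 0.046 and 0.11, with BNIP3 then separated. BCL2A1, BCL2L14 and HRK were at the floor in all 6 libraries, BCL2L10 was above it in A549-GFP replicate 2 alone (1.46 TPM) and BMF in A549-TIPARP replicate 3 alone (1.56 TPM).

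Of the 11 analysed genes of the apoptosome and caspases, 1 had an unadjusted p-value under 0.05, against 3.85% of all genes, and none was called. This was CYCS, cytochrome c, which measured 177, 182 and 139 TPM in A549-GFP replicates 1 to 3, against 115, 131 and 97.9 TPM in the A549-TIPARP libraries. All A549-TIPARP libraries lay below all A549-GFP libraries, as for 3.54% of all genes. The difference was -0.53 on log2(TPM + 1) (standard error 0.19, unadjusted p = 0.0202, limma adjusted p = 0.994), and it was -0.46 without A549-GFP replicate 2. The initiator CASP2 had the next largest difference, -0.24, which was -0.051 without A549-TIPARP replicate 3 and -0.091 without A549-GFP replicate 1. The median difference of the list was -0.07.

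The 8 analysed inhibitors of apoptosis proteins and their antagonists had a median difference of -0.20, with 2 above 0 and 6 below, and none was called. Without A549-GFP replicate 2 the median was 0.063, with 7 above 0 and 1 below. BIRC7 (livin) measured 1.06, 5.44 and 1.30 TPM in A549-GFP replicates 1 to 3, against 3.72, 3.65 and 4.45 TPM in the A549-TIPARP libraries, a difference of 0.66 that was 1.18 without A549-GFP replicate 2 (limma adjusted p = 0.214), and 0.36 or 0.43 with A549-GFP replicate 1 or 3 left out. BIRC5 differed by 0.72, and by -0.62 without that library. Of 10 death receptor genes none was called. FAS (-0.50) and TNFRSF10B (-0.44) had the largest differences with all libraries, which were -0.019 and -0.047 without A549-GFP replicate 2, where TRADD (0.44) had the largest. Of 13 partners and turnover factors none was called. VDAC2, the outer membrane channel that holds BAK, measured 383, 355 and 404 TPM in A549-GFP replicates 1 to 3, against 289, 345 and 281 TPM in the A549-TIPARP libraries. Its difference was -0.32 (limma adjusted p = 0.994), without overlap in the values as deposited, as for 3.54% of all genes. The closest libraries were replicate 2 of each line (355 against 345 TPM). Their median genes lay 0.28 and 0.0053 in log2 above the mean library, so this separation depends on scaling. BAG1 differed by -0.39, or by -0.013 without A549-GFP replicate 2 (154 TPM there and 59.6 to 78.3 TPM elsewhere). Of 11 analysed transcription factors of the members none was called, and ATF3 (-0.94) and DDIT3 (-0.58) had the largest differences, which were -0.26 and 0.30 without A549-GFP replicate 2. The A549-TIPARP libraries of ATF3 (at most 3.64 TPM) lay below all A549-GFP libraries (at least 3.67 TPM), also without that library. TP63 and TP73 were at the floor. Over these lists as a whole 0 of 61 genes were called, and 1 had an unadjusted p-value under 0.05, against 3.85% of all genes. Without A549-GFP replicate 2 the latter count was 8 of 61, against 10.5% of all genes, and 0 were called.

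BCL2L2 had the largest test statistic of the members, and the analysed genes most like it across the 6 libraries were PIK3C2B, CEP120 and ZNF621. Their centred log2(TPM + 1) profiles differed from that of BCL2L2 by a root mean square of 0.0318, 0.0389 and 0.0550, where the median of 13180 genes was 0.432. PIK3C2B measured 22.8 TPM in A549-GFP replicate 2 and between 7.94 and 9.93 TPM elsewhere, and CEP120 and ZNF621 were likewise highest in that library. The most like member was PMAIP1, with 0.289.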

How the data were processed

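RNA was sequenced by the authors from 3 libraries each of A549-GFP and A549-TIPARP cells (TruSeq Stranded mRNA, paired-end, NovaSeq), aligned to the hg38 transcriptome in Strand NGS with default parameters, and deposited as 1 table per library of log2 TPM. The software version, annotation release and strand setting are not given in the sources used here. The lowest deposited log2 value is 0, which stands for every TPM below 1. No counts were given, so depth and counting errors are unknown.

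Lines and replicate numbers came from the sample titles. Members were found by gene symbol. Entries with TPM above 2 in at least 1 library were analysed, as in the study. Differences were tested on log2(TPM + 1) with limma 3.58.1 in R 4.3.3 (variance trend, no block, all 6 libraries, two-sided, Benjamini-Hochberg adjustment over 13181 genes), and folds past 2 were counted on the deposited log2 values. The script of this test was tested on simulated data. Alternatives were a pseudocount of 0.1 or none, no filter, a filter of TPM above 2 in at least 3 libraries, median-ratio rescaling, no trend, a replicate block and each library left out. Lists are described by counts and medians. Named genes were all members, all other BCL2 family genes, and from each further list the 2 largest differences and any gene with an unadjusted p-value under 0.05. ATF4, E2F1, TNFRSF1A, TRADD, TP63 and TP73 lie outside this rule and were named with their values known. Genes most like BCL2L2 were found by the root mean square difference of centred profiles. Coordinates are from GENCODE 44 on hg38 and promoters from RefSeq on GRCh38.p14. Members and lists were chosen with earlier results of these data known. Protein sequences were not used here.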

Additional observations from a re-analysis of the deposited data

How the results depend on the processing

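No member was called by limma under any of the 13 alternatives, and the adjusted p-values of the 9 members were 0.385 or more. The sign was kept under all alternatives by BCL2L2, BID, BAD and BIK. Leaving out each library in turn, the difference on log2(TPM + 1) ran from -0.14 to 0.26 for BCL2L1, -0.15 to 0.089 for MCL1, -0.26 to 0.026 for BAK1, -0.77 to -0.12 for BCL2L2, -0.19 to -0.026 for BID, 0.14 to 0.45 for BAD, 0.079 to 0.30 for BIK, -0.82 to 0.25 for PMAIP1, -0.42 to 0.29 for BCL2L11, -0.14 to 0.11 for BCL2L15, -0.081 to 0.13 for BAX, -0.17 to 0.48 for BCL2L12, -0.38 to 0.046 for BCL2L13, 0.027 to 0.75 for BBC3, 0.26 to 0.56 for BNIP3L, 0.046 to 0.30 for BNIP3, -0.35 to -0.051 for CASP2, 0.36 to 1.18 for BIRC7, -1.35 to -0.26 for ATF3, -0.83 to -0.019 for FAS, -0.69 to -0.047 for TNFRSF10B, -0.58 to -0.013 for BAG1, -1.05 to 0.30 for DDIT3 and -0.62 to 1.42 for BIRC5. The sign changed without A549-GFP replicate 2 for MCL1, BAK1, PMAIP1, BCL2L11, BCL2L15, BCL2L12, BCL2L13, DDIT3 and BIRC5. For BCL2L1 it changed without A549-GFP replicate 1 or 3 or A549-TIPARP replicate 1 or 3, and for BAX without A549-GFP replicate 1 or A549-TIPARP replicate 2. It also changed without A549-TIPARP replicate 3 for MCL1 and BCL2L15 and without A549-TIPARP replicate 2 for BCL2L11. Median-ratio rescaling gave 0.037 for MCL1 and 0.0089 for BCL2L15, and it moved the median of all genes from -0.06 to -0.01. The cause of these sign changes was not tested.

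Members whose lines did not overlap numbered 0 in the values as deposited, 2 after rescaling (BAD higher and BCL2L2 lower, where 12.1% of all genes did not overlap) and from 0 to 2 with a library left out, where 11.7% to 30.7% of all genes did not overlap. These were BAD and BCL2L1, higher, without A549-GFP replicate 2 (27.7%), BIK, higher, and BCL2L2, lower, without A549-TIPARP replicate 2 (16.1%), BCL2L2, lower, without A549-GFP replicate 3 (30.7%) and BID, lower, without A549-TIPARP replicate 1 (11.7%). No member passed 2-fold under any setting run. With a library left out, the log2 ratio of MCL1 to PMAIP1 differed between the lines by -0.18 to 0.71 (negative without A549-GFP replicate 2), that of BCL2L1 to BAK1 by -0.017 to 0.30 (negative without A549-TIPARP replicate 3) and that of the sums by -0.13 to 0.0012 (positive without A549-GFP replicate 1), while MCL1 to BAK1 and BCL2L1 to BAD kept their sign. The 2 genes called in all became 1 without a filter and between 1 and 3 with a library left out. The replicate block also left 1, with 414 in place of 508 genes under 0.05 before adjustment, and changed no call of a member. Same-numbered libraries deviated from their line means with r = 0.45, -0.52 and -0.38. These values cannot tell whether same-numbered experiments were run as pairs, since A549-GFP replicate 2 stood apart and each line has 3 libraries. TIPARP had a limma adjusted p of 0.0125 with all libraries and of 0.00927 to 0.513 over the alternatives, under 0.05 in 6 of 13. Its difference on log2(TPM + 1) ran from 3.54 to 4.24 over these alternatives, so the size of the overexpression held where the call did not. TPM carries no depth, so counting error at low levels, as for BIK, is unknown.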
